A study of Mus musculus with 4 samples.

Results

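The 9 genes described here are the transcription factors that set and carry out the skeletal muscle fate: the paired box factors Pax7 and Pax3, the myogenic regulatory factors Myf5, Myod1, Myog and Myf6, the homeobox factor Six4, and the MADS-box factors Mef2a and Mef2c. They were chosen by gene symbol from the 24328 symbols of the deposited table. All 9 were found, and all 9 passed the filter on low values. Expression values were read as FPKM, fragments scaled to the length of the transcript and to the library's total, a unit that is inferred. They came from 4 libraries of polyadenylated RNA from satellite cells, the stem cells of skeletal muscle. The cells came from mice perfused with paraformaldehyde and were sorted after digestion of the fixed muscle. The YFP group held 2 libraries from mice aged 7 months that carried Pax7CreERT2/+ and ROSA26YFP/+. The DEK group held 2 libraries from mice aged 4.5 months that carried Pax7CreERT2/+ and H11DEK-EGFP/+. Both groups thus carried a Cre recombinase gene, inducible by tamoxifen, at one Pax7 allele. Whether that allele still yields RNA that is counted as Pax7 is not given in the sources used here. Age, reporter and locus go with the group and cannot be told apart from the DEK transgene. Nothing in the labels says that replicates are separate animals, so the tests weigh only differences among these libraries. How cells were gated, and how many mice gave each library, is not given in the sources used here.

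Pax7 marks satellite cells and is needed for their upkeep, and Pax3 is its paralogue from the embryonic muscle lineage. Myf5 and Myod1 are basic helix-loop-helix proteins that commit a cell to muscle, Myog drives the exit into differentiation, and Myf6 acts mainly in later muscle. They bind the E-box as dimers with E proteins, while Six-family factors bind upstream of several of them. Mef2 factors have little myogenic activity by themselves and strengthen that of the helix-loop-helix factors.

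The libraries held 11669 to 12000 genes at 1 FPKM or more, and 12179 genes were tested. Dek, the gene of the transgene, stood at 512 and 504 FPKM in YFP and 3196 and 1640 FPKM in DEK (log2 fold change 2.17, SE 0.31, limma adjusted p = 0.0195). The 16 satellite cell markers listed for this check include Pax7. The other 15 summed to 2093 and 1999 FPKM in YFP and 2308 and 2738 FPKM in DEK. The 8 endothelial markers summed to 67.0 and 71.4 FPKM in YFP and to 131 and 117 FPKM in DEK, and 6 of them rose, where 4.57% of all tested genes did. All 6 were under 1 FPKM in both YFP libraries and passed the filter on low values through DEK alone, which builds the upward direction into this count. Refiltered without either DEK library, 2 of the 8 were tested and 0 were called by limma (unadjusted p under 0.05 for 0 without DEK replicate 1 and for 1 without DEK replicate 2). The 8 macrophage and leukocyte markers summed to 2.89 and 27.4 FPKM in YFP and to 196 and 189 FPKM in DEK, and 2 of the 5 that were tested rose, 1 of them through DEK alone. Of each library's summed FPKM, 11.8% and 15.7% in YFP but 5.15% and 5.55% in DEK belonged to Rn45s, the precursor of ribosomal RNA. The part of these differences in the results below was not tested.

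Of the 9 factors, Myog fell in DEK and none of the others passed limma at an adjusted p under 0.05, the threshold for a call. Among all tested genes 7.78% were called, 3.21% lower and 4.57% higher. At an unadjusted p under 0.05, limma had 3 factors lower (Myog, Myod1 and Six4) and 2 higher (Mef2a and Pax7). Over all tested genes 29.1% passed, 1488 of 12179 lower and 2057 higher. The libraries of the groups did not overlap for 7 of the 9 factors, 4 lower in DEK and 3 higher. Among all tested genes 60.9% did not overlap, 26.9% lower and 34% higher, so that separation by itself does not set the factors apart. The median log2 fold change was -0.21 over the 9 factors and 0.05 over all tested genes. Fold changes are on the scale log2(FPKM + 1), which understates the change of genes with low values.

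**Figure D1:**
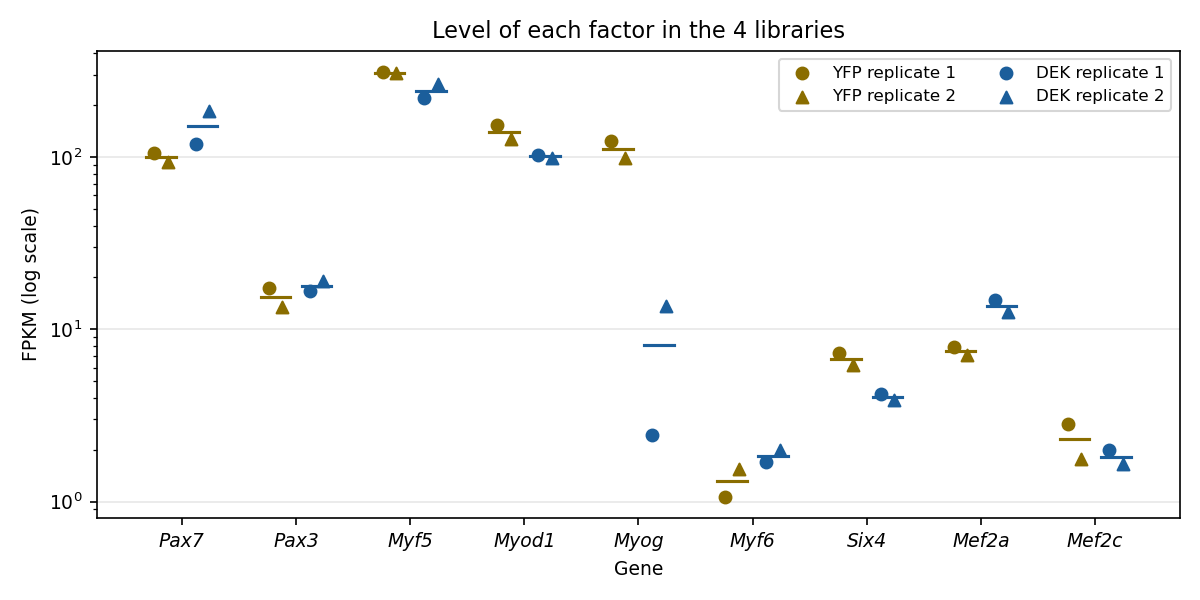
FPKM on a log axis for each of the 9 factors in each library (YFP in brown, DEK in blue, circles for replicate 1 and triangles for replicate 2, bars at the group means). Myog is the only factor whose groups lie far apart, at 98.3 and 124 FPKM in YFP and 2.44 and 13.7 FPKM in DEK.

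Myog, which encodes myogenin, stood at 124 and 98.3 FPKM in YFP replicates 1 and 2, against 2.44 and 13.7 FPKM in DEK replicates 1 and 2. Both DEK libraries lay far below both YFP libraries, and the DEK mean was 13.8 times lower. The log2 fold change was -3.97 (SE 0.63, 95% interval -5.50 to -2.43, limma adjusted p = 0.0242), which ranked 4 from the lowest among the 12179 genes tested. In bulk samples, fewer cells with Myog and less Myog RNA per cell cannot be told apart. Of the 9 factors Myog also had the widest gap between DEK replicates, with 5.61 times as much in replicate 2 as in replicate 1. Against the YFP mean its log2 difference was -5.02 in replicate 1 and -2.92 in replicate 2. It was -3.81 without YFP replicate 1 and -4.13 without YFP replicate 2. With the same genes tested, the call held without DEK replicate 2 and was lost without any of the other libraries. When the low filter was applied to the 3 remaining libraries, the call held without either DEK library and was lost without either YFP library. These fits leave 1 library in a group, and calls over all tested genes shrank in each of them. The Myog call was also lost with no low filter (limma adjusted p = 0.241) and with robust estimation (0.0837).

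Myog is printed with the 250 bases before its start because it is the factor that was called, and Chrng, the gamma subunit of the fetal acetylcholine receptor, because it is a muscle gene that fell with it. Both stretches come from RefSeq on build GRCm38.p6, whereas the deposited values rest on mm9. Capitals mark the E-box CANNTG and the Six-factor motif TCAGGTT, searched on both strands with no overlap between their matches here.
Myog, chr1:134289754-134290003, plus strand: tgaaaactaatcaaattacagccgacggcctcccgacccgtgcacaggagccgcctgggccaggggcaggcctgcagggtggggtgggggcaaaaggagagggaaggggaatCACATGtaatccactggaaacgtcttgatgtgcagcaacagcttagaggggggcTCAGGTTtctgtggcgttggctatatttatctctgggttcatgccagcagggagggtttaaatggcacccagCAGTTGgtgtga
Chrng, chr1:87205561-87205810, plus strand: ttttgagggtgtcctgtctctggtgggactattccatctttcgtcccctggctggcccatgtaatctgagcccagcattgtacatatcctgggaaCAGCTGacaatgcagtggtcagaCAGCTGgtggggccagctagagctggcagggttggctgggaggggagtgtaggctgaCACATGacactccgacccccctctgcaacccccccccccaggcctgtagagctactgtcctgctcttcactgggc
In Myog the E-boxes begin 138 and 12 bases before the start and the Six-factor motif begins 84 bases before it. Chrng holds 3 E-boxes, at 155, 132 and 75 bases, and no Six-factor motif. It held the most E-boxes of the target genes searched that fell. Rbm24 held 2, Ttn and Myh8 held 1 each, and Actc1 held 0. None of them held the Six-factor motif. Of 32817 stretches of this length in the same table, 66.2% hold an E-box and 3.50% the Six-factor motif. Promoters of 6 of the 9 factors were matched in that table, and those of Pax3, Myod1 and Myf6 were not. The first of the 3 Mef2c starts holds 2 E-boxes and 1 Six-factor motif, the third holds 1 E-box, and 1 of the 2 Six4 starts holds a Six-factor motif. The stretches of Pax7, Myf5 and Mef2a hold neither motif. These matches are letters only, and none was tested for binding.

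The commitment factors Myod1 and Myf5 had lower values in DEK and were not called. Myod1 stood at 153 and 128 FPKM in YFP and 103 and 99.3 FPKM in DEK. Both DEK libraries were below both YFP libraries, and the DEK values lay close together (log2 fold change -0.46, SE 0.15, 95% interval -0.83 to -0.10, limma adjusted p = 0.108). Myf5 was the most abundant of the 9 factors in each library, at 312 and 306 FPKM in YFP and 220 and 267 FPKM in DEK. Its groups did not overlap either, and its log2 fold change was -0.35 (SE 0.15, 95% interval -0.72 to 0.02, limma adjusted p = 0.190). Myf6, which lies next to Myf5 in the genome, was near the filter on low values, at 1.07 and 1.55 FPKM in YFP and 1.69 and 2.00 FPKM in DEK. Its DEK libraries were the higher ones, with a log2 fold change of 0.31 (95% interval -0.24 to 0.85, limma adjusted p = 0.405). This interval includes 0, so no direction was shown for Myf6. A missed threshold does not show that Myod1, Myf5 or Myf6 was equal in the groups.

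The paired box factors had higher means in DEK than in YFP and were not called. Pax7 stood at 106 and 93.9 FPKM in YFP and 119 and 184 FPKM in DEK. The groups did not overlap, but DEK replicate 1 lay close to the higher YFP library and replicate 2 well above it, at 1.54 times replicate 1. The log2 fold change was 0.57 (SE 0.22, 95% interval 0.02 to 1.12, limma adjusted p = 0.159). It was 0.26 without DEK replicate 2 and 0.88 without DEK replicate 1, and in the latter case it passed when the low filter was applied to the 3 remaining libraries (limma adjusted p = 0.0456). Pax3 stood at 17.3 and 13.4 FPKM in YFP and 16.7 and 19.2 FPKM in DEK. These groups overlapped (log2 fold change 0.22, 95% interval -0.24 to 0.68, limma adjusted p = 0.478). In each library Pax7 was far more abundant than Pax3 on the length-scaled FPKM.

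Six4, a homeobox factor that acts on muscle genes, stood at 7.30 and 6.18 FPKM in YFP and 4.23 and 3.89 FPKM in DEK. Both DEK values lay below both YFP values, the replicates of each group were close, and the log2 fold change was -0.61 (SE 0.19, 95% interval -1.08 to -0.14, limma adjusted p = 0.104). Mef2a stood at 7.89 and 7.14 FPKM in YFP and 14.8 and 12.6 FPKM in DEK. It was the factor nearest to a call in the upward direction, with DEK 1.82 times the YFP mean (log2 fold change 0.78, SE 0.18, 95% interval 0.35 to 1.21, limma adjusted p = 0.0532). It passed with robust estimation (0.0456) and among genes at 5 FPKM or more in 2 libraries (0.0475). Lysmd4 overlaps Mef2a on the opposite strand in the annotation. Whether the counting used strand is not given in the sources used here, and without it reads of the pair cannot be told apart where they overlap. Lysmd4 stood at 7.25 and 9.85 FPKM in YFP and 5.87 and 7.77 FPKM in DEK and its groups overlapped (log2 fold change -0.29, limma adjusted p = 0.446). Mef2c was low, at 2.84 and 1.76 FPKM in YFP and 1.99 and 1.66 FPKM in DEK, and its groups overlapped (log2 fold change -0.21, 95% interval -0.81 to 0.39, limma adjusted p = 0.611). Without YFP replicate 1 its value was 0.029.

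**Figure D2:**
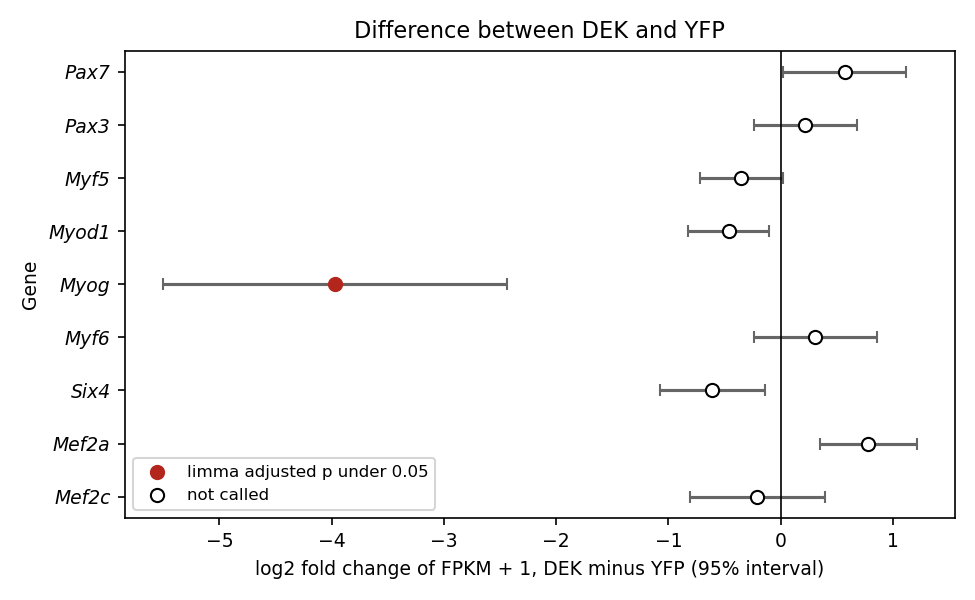
log2 fold change of FPKM + 1 in DEK relative to YFP for each factor, with the 95% interval from limma (filled, adjusted p under 0.05, and open, not called). The interval of Myog runs from -5.50 to -2.43, away from all others, and those of Pax3, Myf5, Myf6 and Mef2c include 0.

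The order of the factors by level differed between the groups. In YFP the means ran from Myf5 (309 FPKM) through Myod1 (141), Myog (111), Pax7 (99.7), Pax3 (15.3), Mef2a (7.51), Six4 (6.74) and Mef2c (2.30) to Myf6 (1.31). Neighbours whose libraries overlapped in this order were Myog with Pax7 and Mef2a with Six4, although each pair kept its order within both libraries. In DEK they ran from Myf5 (243 FPKM) through Pax7 (152), Myod1 (101), Pax3 (17.9), Mef2a (13.7), Myog (8.06), Six4 (4.06) and Myf6 (1.84) to Mef2c (1.82). Here Mef2a overlapped with Myog, Myog with Six4 and Myf6 with Mef2c, and in these 3 pairs the order differed between the libraries. Myog thus went from the third to the sixth place. Its mean exceeded that of 94.3% of the tested genes in YFP and of 40.9% in DEK, while Pax7, Myf5 and Myod1 stayed above 93.0% or more of them in both groups.

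Plain ratios of FPKM between factors within a library do not depend on how libraries are scaled. The ratio of Myod1 to Pax7 was 1.45 and 1.36 in YFP and 0.863 and 0.540 in DEK, so Myod1 exceeded Pax7 in both YFP libraries and Pax7 exceeded Myod1 in both DEK libraries. With 1 FPKM added to each value, the log2 ratio was 0.49 ± 0.069 in YFP and -0.55 ± 0.48 in DEK (SD, n = 2 each, exact permutation p = 0.33, two-sided). The ratio of Myog to Myod1 was 0.806 and 0.771 in YFP and 0.0236 and 0.138 in DEK. Its log2 value was -0.34 ± 0.045 in YFP and -3.85 ± 1.52 in DEK (SD, n = 2 each, exact permutation p = 0.33, two-sided). With 2 libraries against 2, 0.33 is the smallest p that this test allows, so neither ratio could pass. The spread of both ratios was wider in DEK than in YFP, and the groups did not overlap in either.

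**Figure D3:**
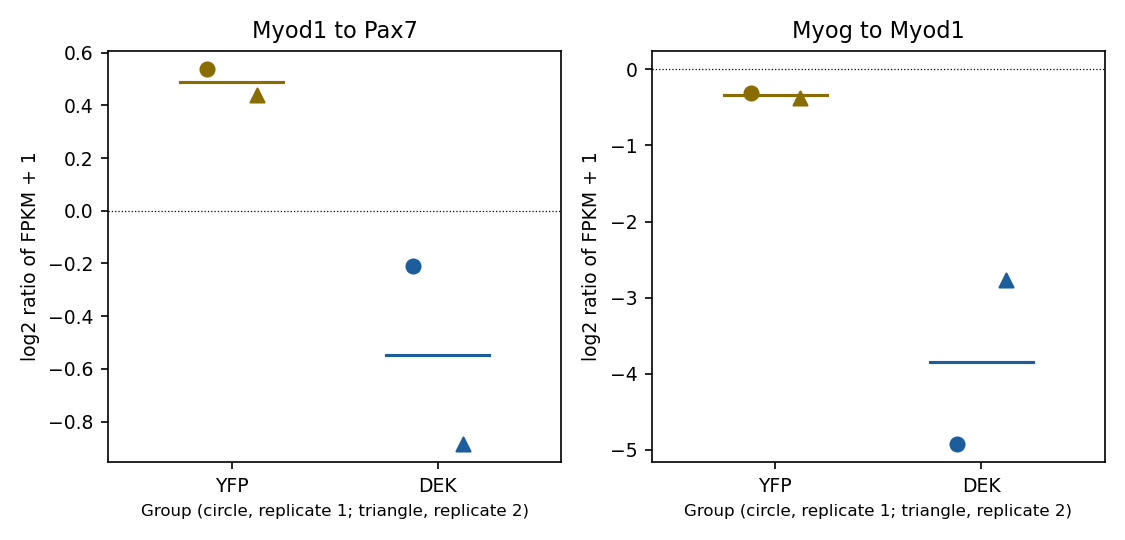
log2 ratio of FPKM + 1 within each library, for Myod1 to Pax7 (left) and Myog to Myod1 (right), with bars at the group means and different vertical scales. In the left panel the YFP libraries lie above 0 and the DEK libraries below it, and in the right panel the DEK libraries lie at -4.92 and -2.77.

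Other genes of the network were taken from 6 lists written from general knowledge, and the 9 factors were left out of them. Of 116 such genes, 87 were tested, 16 fell in DEK and 2 rose by limma, where 3.21% of all tested genes fell and 4.57% rose. At an unadjusted p under 0.05, limma had 28 lower and 12 higher. Over all tested genes 29.1% passed, 1488 of 12179 lower and 2057 higher. The median log2 fold change of the 87 was -0.27, against 0.05 over all tested genes. The falls were uneven, since 11 of the 16 were in the list of muscle target genes. These calls lean on each library, since fewer were made with any 1 library left out, with or without refiltering. Such a fit leaves 1 library in a group. With the same genes tested, lower calls over all tested genes shrank too, so the loss is not particular to the network.

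**Figure D4:**
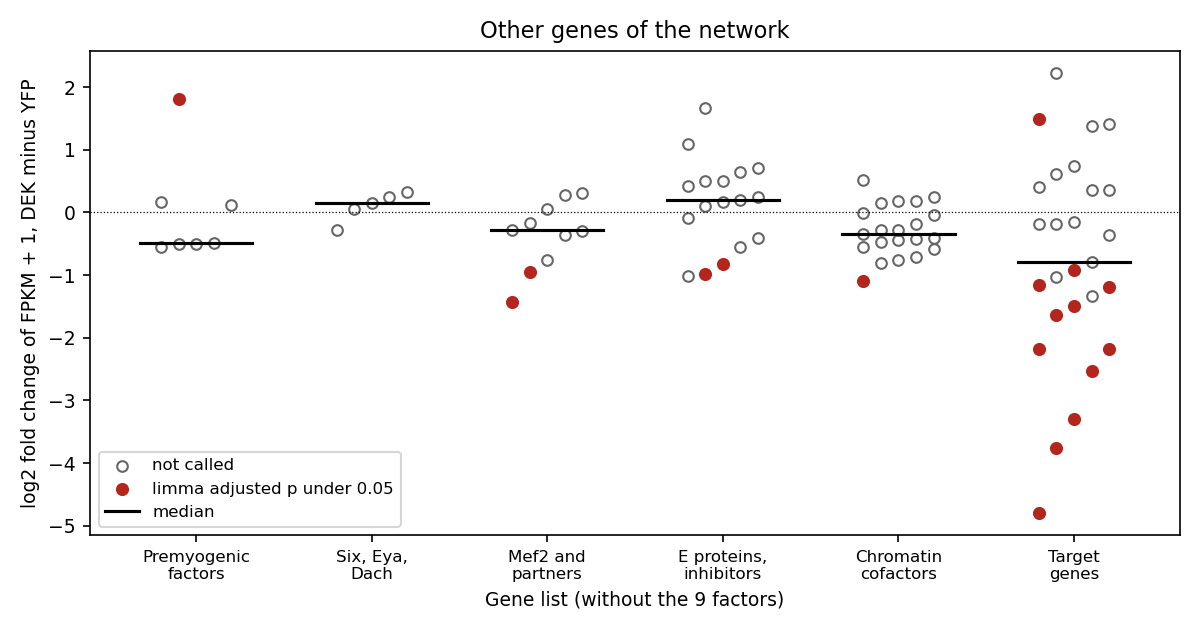
log2 fold change of FPKM + 1 in DEK relative to YFP for each tested gene of the 6 lists, without the 9 factors (filled, limma adjusted p under 0.05, open, not called, black bars, medians). Target genes spread from -4.80 to 2.23 and hold 11 of the 16 genes called lower.

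Among upstream factors of the muscle lineage, 7 of 13 listed genes besides Pax7 and Pax3 were tested. Meox2, a homeobox factor of the somite that is also known from blood vessels, rose from 0.384 and 0 FPKM in YFP to 2.86 and 3.41 FPKM in DEK (limma adjusted p = 0.0173), and passed the filter through DEK alone. The endothelial markers named above moved in the same direction, and those called had also passed the filter through DEK alone. A link between them and Meox2 was not tested. Tbx1, Pitx3 and Zic1 had log2 fold changes of -0.55, -0.50 and -0.49 and were not called. In the list of Six-family factors with their Eya coactivators and Dach corepressors, 5 of 11 genes besides Six4 were tested. Of these 0 were called, where 7.78% of all tested genes were. At an unadjusted p under 0.05 limma had 0, where 29.1% of all tested genes passed. With 5 genes, 0 calls does not set this list apart.

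Among Mef2 partners 10 of 14 listed genes were tested. Of these 2 fell and 0 rose by limma, where 3.21% of all tested genes fell and 4.57% rose. At an unadjusted p under 0.05, 2 were lower and 0 higher. Over all tested genes 29.1% passed, 1488 of 12179 lower and 2057 higher. Both that fell are class IIa histone deacetylases, which bind Mef2 factors and hold their targets silent. Hdac7 went from 11.1 and 9.87 FPKM in YFP to 3.25 and 3.28 FPKM in DEK (log2 fold change -1.43, SE 0.18, limma adjusted p = 0.0142). Hdac5 went from 19.6 and 22.8 FPKM to 9.20 and 11.9 FPKM (log2 fold change -0.95, SE 0.19, limma adjusted p = 0.0409). Their relative Hdac4 was at 18.9 and 20.7 FPKM in YFP and 17.3 and 17.9 FPKM in DEK (limma adjusted p = 0.517). Mkl1, a coactivator of serum response factor, had a log2 fold change of -0.76 and was not called.

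E proteins are the dimer partners of the helix-loop-helix factors, and Id proteins and several repressors hold those factors back. In that list 17 of 21 genes were tested. Of these 2 fell and 0 rose by limma, where 3.21% of all tested genes fell and 4.57% rose. At an unadjusted p under 0.05, 5 were lower and 4 higher. Over all tested genes 29.1% passed, 1488 of 12179 lower and 2057 higher. Msc, also called MyoR, a repressor that competes with the myogenic factors, went from 169 and 134 FPKM in YFP to 64.1 and 88.2 FPKM in DEK (log2 fold change -0.99, SE 0.21, limma adjusted p = 0.0438). Bhlhe41, another repressor, went from 30.9 FPKM in both YFP libraries to 15.2 and 19.2 FPKM in DEK (log2 fold change -0.82, SE 0.17, limma adjusted p = 0.0431). Id2 stood at 101 and 83.0 FPKM in YFP and 487 and 176 FPKM in DEK, a wide gap between DEK replicates, and was not called (log2 fold change 1.67, SE 0.45, limma adjusted p = 0.0755). The Notch effector Hey1 stood at 38.3 and 37.7 FPKM in YFP and 64.8 and 54.9 FPKM in DEK (log2 fold change 0.64, limma adjusted p = 0.0558). The E proteins Tcf3, Tcf4 and Tcf12 had log2 fold changes of 0.11, 0.20 and -0.41, none of them called. The calls of Msc and Bhlhe41 were lost when any 1 library was left out with the same genes tested. So were most calls over all tested genes. After refiltering, both stayed called without DEK replicate 2 and were lost when any other library was left out. They were also lost with an added value of 0.1 (limma adjusted p = 0.0529 and 0.0509), with no low filter (0.254 and 0.182) and with no variance trend (0.0642 and 0.0585). With the replicate number as a block they were lost too (limma adjusted p = 0.0719 and 0.0646).

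Each of 21 chromatin cofactors of Pax7 and the myogenic factors was tested. By limma 1 fell and 0 rose, where 3.21% of all tested genes fell and 4.57% rose, so 1 call does not set this list apart. At an unadjusted p under 0.05, 7 were lower and 1 higher. Over all tested genes 29.1% passed, 1488 of 12179 lower and 2057 higher. The log2 fold change was negative for 16 of the 21 cofactors, as for 5520 of the 12179 tested genes. Its median was -0.35 in this list and 0.05 over all tested genes. The methyltransferase Setd7 went from 8.90 and 9.71 FPKM in YFP to 3.403 and 4.31 FPKM in DEK (log2 fold change -1.09, SE 0.19, limma adjusted p = 0.0323). The Polycomb methyltransferase Ezh2, the trithorax subunit Ash2l and the acetyltransferase Kat2b had log2 fold changes of -0.81, 0.52 and -0.58 and were not called. With the same genes tested and any 1 library left out, the calls of Setd7, Hdac7 and Hdac5 were lost as well, at limma adjusted p from 0.0823 to 0.209.

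The last list holds genes that the myogenic and Mef2 factors switch on in differentiation. Of 36 listed, 27 were tested. By limma 11 fell and 1 rose, where 3.21% of all tested genes fell and 4.57% rose. At an unadjusted p under 0.05, 13 were lower and 6 higher. Over all tested genes 29.1% passed, 1488 of 12179 lower and 2057 higher. The median log2 fold change of the list was -0.80. Of the 11, 5 were under 1 FPKM in both DEK libraries and passed the filter through YFP alone. Actc1, the cardiac actin of developing muscle, stood at 123 and 93.1 FPKM in YFP and 1.16 and 6.01 FPKM in DEK (log2 fold change -4.80, SE 0.52, limma adjusted p = 0.00931). Chrnd, the delta subunit of the acetylcholine receptor, went from 7.37 and 6.97 FPKM to 0.310 and 0.516 FPKM (log2 fold change -2.54, SE 0.20, limma adjusted p = 0.00413). Chrng, whose upstream stretch is printed above, went from 5.54 and 4.81 FPKM to 0.0422 and 0.764 FPKM (log2 fold change -2.19, SE 0.30, limma adjusted p = 0.0168). Ttn, the giant spring of the sarcomere, went from 18.4 and 21.0 FPKM to 3.34 and 3.82 FPKM (log2 fold change -2.17, SE 0.18, limma adjusted p = 0.00436). The other 7 that fell were Tmem8c, Cdkn1c, Rbm24, Cav3, Myl4, Klhl41 and Myh8. Casq2, a calcium-binding protein of the sarcoplasmic reticulum, rose from 0.0290 and 0.163 FPKM to 1.68 and 2.497 FPKM (limma adjusted p = 0.0262) and passed the filter through DEK alone.

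Some genes of mature fibres had their highest value in DEK replicate 1 and were not called. Tnnc2, a fast troponin, stood at 3.76 and 2.33 FPKM in YFP and 31.8 and 9.60 FPKM in DEK replicates 1 and 2 (limma adjusted p = 0.0577). Ckm, the muscle creatine kinase, stood at 2.26 and 2.77 FPKM in YFP and 13.7 and 4.69 FPKM in DEK. The 12 markers of adult fibres summed to 104 and 91.4 FPKM in YFP and to 113 and 65.0 FPKM in DEK. Of the 6 tested, 0 were called by limma, where 7.78% of all tested genes were. At an unadjusted p under 0.05, 2 were lower and 2 higher, where 29.1% of all tested genes passed. Chrnb1 and Chrna1, further receptor subunits, had log2 fold changes of 0.36 and -0.36 and were not called. When each library was dropped in turn, fewer target genes were called lower, with or without refiltering on the 3 libraries left. With the same genes tested, lower calls over all tested genes shrank too. The list median of -0.80 moved to -0.16 and -0.21 over the 22 genes left after refiltering without YFP replicate 1 or 2, and to -0.28 over all 36 genes with no low filter. It was -0.36 with an added value of 5, -0.52 without DEK replicate 1 and -0.43 without DEK replicate 2 (-0.48 after refiltering).

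The DEK replicates differed in the same direction for Myog and for each of the 11 target genes that fell: all 12 were higher in replicate 2. Of the 11, 5 were under 1 FPKM in both DEK libraries, and the precision of such low values is unknown. Among the 391 genes called lower, 71.4% were higher in DEK replicate 2, as were 62.6% of all tested genes. The gap was wide for Myog, Tmem8c, Actc1 and Cdkn1c and narrow for Ttn, Myl4 and Rbm24. Dek itself was higher in replicate 1, at 1.95 times the level of replicate 2. These are 2 libraries, and a relation between Dek and Myog across them was not tested.

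**Figure D5:**
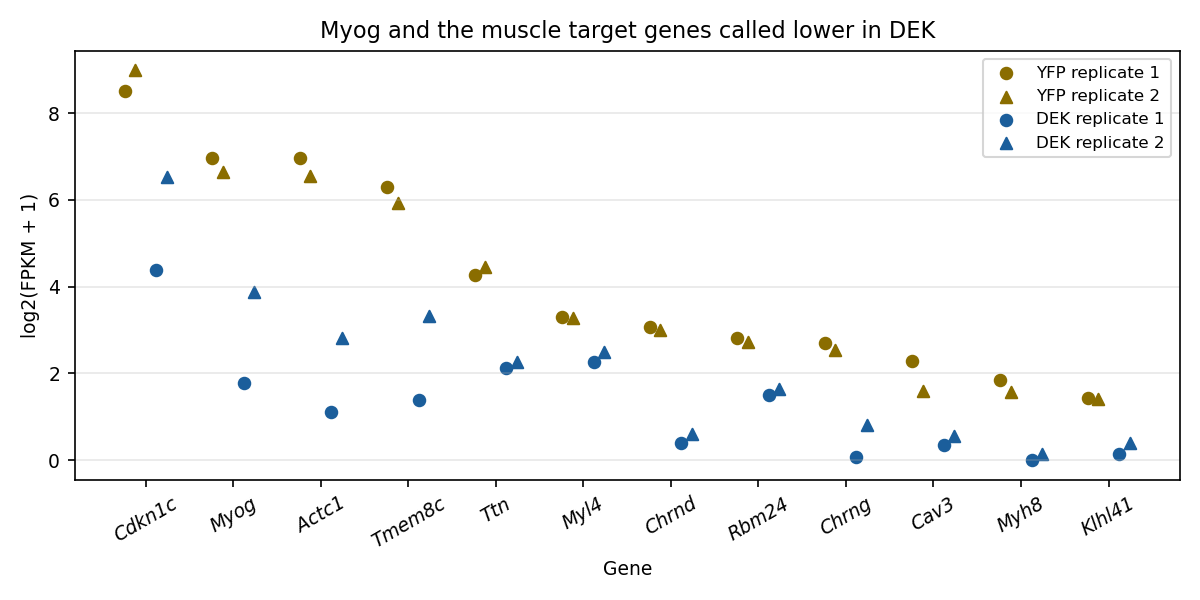
log2(FPKM + 1) of Myog and the 11 target genes called lower in DEK, in each library (YFP in brown, DEK in blue, circles for replicate 1 and triangles for replicate 2). For each gene both DEK libraries lie below both YFP libraries and DEK replicate 2 lies above DEK replicate 1.

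The genes whose profiles over the 4 libraries were most like that of Myog were sought by the Euclidean distance between log2(FPKM + 1) values after subtraction of each gene's mean. The nearest was Tmem8c, the membrane protein of myoblast fusion, at a distance of 0.238, with 77.2 and 60.3 FPKM in YFP and 1.61 and 8.99 FPKM in DEK. Next came Aspm, a spindle protein of dividing cells (0.784), Actc1 (0.876), the cell cycle inhibitor Cdkn1c (0.877) and the histone gene Hist1h2ao (1.12), which has near-identical copies that share reads. Aspm stood at 23.8 and 20.6 FPKM in YFP and 0.215 and 4.30 FPKM in DEK, and Cdkn1c at 366 and 508 FPKM in YFP and 20.01 and 90.7 FPKM in DEK. For Pax7 the nearest were Tubg2, Fgf16, Sdc1, Tap1 and Tagln, at distances of 0.0963 to 0.126. None of these 5 was called, and Tagln, a smooth muscle actin-binding protein, was the closest to Pax7 in level, at 101 and 85.9 FPKM in YFP and 123 and 182 FPKM in DEK. Likeness over 4 libraries is a description and was not tested.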

How the data were processed

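RNA of 4 libraries was compared, 2 labelled YFP and 2 labelled DEK. The submitters' processing notes name the aligner STAR (2.5.3a), the quantifier StringTie (1.3.3), R (3.4.1) and the mouse build mm9. Annotation and settings are not given in the sources used here. The deposited table gives 1 value per symbol and library, read as FPKM made by the authors. That unit is inferred from the tool and the values, and TPM remains possible. No depth can be given, since low values did not resolve into whole reads, so no counting intervals are printed. All 4 value columns were used.

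Values were analysed as log2(FPKM + 1) with limma 3.58.1 in R 4.3.3, with a variance trend and no covariates, two-sided, on the 12179 genes that reached 1 FPKM in 2 libraries, with Benjamini-Hochberg adjustment over all of them. The script was tested on simulated data. The 9 factors, the lists and the alternatives were chosen with earlier results of these data known. Named genes were the 9 factors, Dek, up to 4 genes with the smallest p in each list, and the 5 nearest profiles to Myog and to Pax7 at a mean of 5 FPKM or more. Lysmd4, Hdac4, Ckm, the E proteins and the other genes outside this rule were chosen after their values were seen. Some genes taken by the rule are left undescribed. The 6 network lists covered premyogenic factors, Six-Eya-Dach, Mef2 partners, E proteins and inhibitors, chromatin cofactors and target genes. Marker lists covered satellite cells, myofibres, fibro-adipogenic progenitors, endothelium, pericytes and smooth muscle, macrophages and leukocytes, and Schwann cells. Some results are not reported here.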

Additional observations from a re-analysis of the deposited data

How the results depend on the processing

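Depth per library is unknown, so the precision of low values such as those of Myf6 and Mef2c cannot be given. Over the alternatives run, each factor but Mef2c kept its sign. Mef2c ran from -0.45 to 0.029 with a library left out and turned positive without YFP replicate 1. Myog ran from -5.02 to -2.92 and was called in 11 of its 18 alternatives. Factors called lower numbered 0 with no low filter and with robust estimation, and 0 to 1 with a library left out. Mef2a was the 1 factor called higher among genes at 5 FPKM, with robust estimation and at an adjusted p under 0.1, and Pax7 was the 1 called without DEK replicate 1 after refiltering. Network genes called lower numbered 10 with an added value of 0.1, 0 with no low filter and 0 to 4 with a library left out. Those called higher numbered 4 with the replicate block, 1 with an added value of 0.1, with no low filter and at 5 FPKM, 7 at an adjusted p under 0.1, and 0 to 2 with a library left out. Over all tested genes 391 were called lower and 557 higher. Lower calls numbered 235 with the block, 10 with no low filter, 859 at an adjusted p under 0.1 and 0 to 45 with a library left out. Higher calls numbered 96 with no low filter, 1237 at an adjusted p under 0.1 and 0 to 139 with a library left out. Refiltering on the 3 libraries left, which was chosen after seeing the data, gave 36, 16, 125 and 409 lower and 132, 67, 177 and 371 higher calls as first each YFP library (1, then 2) and then each DEK library (1, then 2) was dropped. In the network it gave 1, 1, 9 and 14 lower and 1, 0, 2 and 8 higher. The causes were not tested. Higher genes made up 58.8% of calls, 52.9% with TMM factors, 48.1% after quantile normalization and 42.3% without Rn45s. Taking out Rn45s shifted the overall median log2 fold change from 0.05 to -0.07. The replicate numbers are shared only as labels, and the differences between replicates 1 and 2 correlated at 0.0635 across genes between the groups. With the number as a block, limma called 618 genes, 561 of them among the 948 called without it, and Myog stayed called (adjusted p = 0.0271). Msc and Bhlhe41 were not called with the block (adjusted p = 0.0719 and 0.0646).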

Other observations

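Other marker lists gave further values. Of 8 markers of fibro-adipogenic progenitors, 3 rose and 2 fell in DEK by limma, where 4.57% of all tested genes rose and 3.21% fell, with Ly6a and Dcn among those that rose and the collagen genes Col1a1 and Col3a1 those that fell. Ly6a stood at 1.38 and 1.61 FPKM in YFP and 16.6 FPKM in both DEK libraries. Of 8 markers of pericytes and smooth muscle 2 rose, Myh11 and Rgs5, and 0 fell. Myh11 was at 0.175 and 0 FPKM in YFP and passed the filter through DEK alone. Acta2 and Kcnj8 of the same list were lower at an unadjusted p under 0.05 and were not called, with log2 fold changes of -0.97 and -0.53 (limma adjusted p = 0.0529 and 0.148). Among the 16 satellite cell markers Cd34 and Chrdl2 rose and 0 fell. At an unadjusted p under 0.05, 7 were higher and 0 lower by limma. Over all 12179 tested genes 2057 were higher and 1488 lower at that threshold. Of 6 Schwann cell markers 4 were tested, of which 2 rose and 0 fell by limma. The shares of all tested genes, 4.57% higher and 3.21% lower, stand beside each of these lists. Kdr and Flt1, endothelial receptors, had a listed value of 0 in each YFP library. In DEK, Kdr was at 2.37 and 2.19 FPKM and Flt1 at 3.79 and 3.99 FPKM.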
